A study of Mus musculus with 12 samples.

Results

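The core circadian clock is a feedback loop of transcription factors that runs in almost every mammalian cell, the cells of the vessel wall included. Arntl (also called Bmal1) pairs with Clock or with its relative Npas2 and switches on the Per and Cry genes through DNA elements called E-boxes. The PER and CRY proteins return to the nucleus and repress that pair. In a second loop, the nuclear receptors Nr1d1 and Nr1d2 (REV-ERB alpha and beta) repress Arntl through elements that the activating ROR receptors also bind. In mouse tissue the Arntl messenger is therefore known to peak roughly opposite in the day to those of Nr1d1, Nr1d2 and the Per genes. These need not all peak at the same hour. The loop as a whole times blood pressure and vascular tone.

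The 10 genes described are Arntl, Clock, Npas2, Per1, Per2, Per3, Cry1, Cry2, Nr1d1 and Nr1d2, taken as the gene probes that carry these names in the array files. They are 10 of 28112 genes named on the array and have 11 of its 55681 gene probes, 2 for Cry2 and 1 for each other gene. RNA came from the descending aorta of male C57BL/6 mice aged 20 months (6 mice) and 6 months (6 mice), 1 mouse per Agilent 1-colour array, flushed with saline, cleaned of surrounding fat and fed standard chow. The time of day at which the tissue was taken is not in the labels, so that no array can be given a clock time. All values are log2 signals relative to the array's own 75th percentile over gene probes, so that 1 unit is a doubling. Levels of different probes are not compared.

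The share of gene probes with a signal well above background ran from 47.5% to 55.8% across arrays. Smooth muscle markers averaged between 7.28 and 7.66 per array at 20 months and between 7.14 and 7.78 at 6 months, as the aorta label says. Fat markers were also high on every array, although the tissue is described as cleaned of surrounding fat. The 5 white fat markers averaged 4.89 to 5.65 per array at 20 months and 4.96 to 5.6 at 6 months. For the 6 brown fat markers the means were 3.96 to 5.2 at 20 months and 4.08 to 5.52 at 6 months. How much fat the samples held was not tested. The heart muscle markers were high in 20 months replicate 1 and 6 months replicate 1 (3.0 and 2.07 above their 12-array mean) and the T and NK cell markers in 6 months replicate 4 (1.66 above). Other markers varied too. The mesothelial deviation ran from -2.02 (20 months replicate 1) to 2.36 (6 months replicate 3), and that of B cells reached 1.22 (20 months replicate 2). Each of the 3 slides carried 2 mice per age, and the slides serve as batches below. Column 3 of the slides held the 20-month mice and none of the 6-month mice, so that column and age cannot be told apart. In a bulk sample, fewer cells of a type and less RNA per cell cannot be told apart.

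Of the 10 genes, 9 were detected on 12 of 12 arrays and so passed the filter, which asks for detection (a signal well above background) in 6 mice or more. Cry1, a cryptochrome repressor, did not: its probe (chr10:84594731-84594790, mm9) was not well above background on any of 12 arrays, with raw signals from 3.39 to 16.7. Nothing can be said here about Cry1. Npas2 and Per3 were dim, with raw signals of 19.1 to 78 and 27.8 to 65.3, beside a lowest signal above background of 11.4 to 17.6 per array.

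The letters that the clock's own factors are known to read stand in several of the members' promoters, shown here because the activator and repressor genes are set against each other below. The RefSeq table of assembly GRCm38.p6 gave 13 promoter windows, from 250 bases before to 50 after the start, for 9 of the 10 genes, and none for Per2. Both strands were searched for CACGTG (the E-box), CACGTT (the variant known from Per2), TTATGNAA (the D-box, read by Dbp and its relatives and by the repressor Nfil3) and TAGGTCA and TGGGTCA (read by ROR and REV-ERB), with the match in capitals below, where AACGTG is CACGTT on the other strand. Of all 32851 windows 7.15% held CACGTG, 4.68% CACGTT, 3.38% TTATGNAA, 2.61% TAGGTCA and 3.98% TGGGTCA. No 2 of these motifs overlapped in the members' windows.
Per1 E-box (chr11:69098756-69098815, + strand): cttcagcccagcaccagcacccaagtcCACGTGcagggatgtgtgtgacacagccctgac
Per1 D-box (chr11:69098898-69098948, + strand): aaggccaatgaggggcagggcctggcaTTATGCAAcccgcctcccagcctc
Per3 first D-box (chr4:151044836-151044897, - strand): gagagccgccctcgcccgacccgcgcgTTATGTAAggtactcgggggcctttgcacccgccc
Per3 second D-box (chr4:151044789-151044850, - strand): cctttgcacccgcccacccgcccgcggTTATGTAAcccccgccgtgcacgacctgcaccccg
Cry1 E-box (chr10:85185082-85185141, - strand): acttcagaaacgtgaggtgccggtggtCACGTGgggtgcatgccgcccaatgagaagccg
Cry2 E-box variant (chr2:92434203-92434262, - strand): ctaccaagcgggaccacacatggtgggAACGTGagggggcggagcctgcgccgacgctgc
Nr1d1 E-box variant (chr11:98775378-98775432, - strand): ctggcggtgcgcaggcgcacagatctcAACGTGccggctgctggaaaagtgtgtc
Arntl ROR and REV-ERB element (chr7:113207530-113207559, + strand): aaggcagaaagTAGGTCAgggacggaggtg

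The Arntl element begins 31 bases after 1 of the 2 annotated starts. Both Per1 motifs lie in the same window, and the other Per1 window (chr11:69099902-69100201) held none. TGGGTCA was in none of the members' windows. Cry1 held a CACGTT match too, on the other strand and close to the E-box shown. The windows of Clock, Npas2 and Nr1d2 held none of the 5 motifs, which says only that these letters are not in these windows.

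The first question was whether the aged aorta carries a different level of clock messengers. None of the 9 genes tested passed the threshold for age (limma, adjusted p under 0.05 over all 16853 genes), where 0.314% of all genes did, 44 of them higher (0.261%) and 9 lower (0.0534%) at 20 months. None passed at an unadjusted p under 0.05 either, where 7.99% of all genes did, although the dimmer of the 2 Cry2 probes, which does not stand for its gene in this fit, was just under it. In addition, the 6 values at 20 months overlapped the 6 at 6 months for all 9 genes, while 0.813% of all genes were free of overlap. The change was positive for 6 genes and negative for 3, with a median of 0.11 beside -0.02 over all genes. The 3 negative ones were the activators Arntl, Clock and Npas2. The ranges of some cell marker means overlapped only in part between the ages. The 6 macrophage markers averaged 1.64 to 2.01 per array at 20 months and 1.07 to 1.71 at 6 months. For the 5 mesothelial markers the means were -4.40 to -1.63 at 20 months and -2.65 to -0.02 at 6 months. Neither these marker differences nor their part in the members' changes was tested.

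Arntl (probe at chr7:120457261-120457320, mm9), the activator without which the loop stops, had a lowest, median and highest value of -1.10, 0.22 and 0.99 at 20 months, against -0.23, 0.17 and 1.24 at 6 months. Its mean was 0.11 ± 0.72 at 20 months and 0.34 ± 0.58 at 6 months (SD, n = 6 each), a difference of -0.23 ± 0.33 (SE, limma, adjusted p = 0.888). The ages overlapped almost entirely, and the mice of 1 age differed from each other by up to 4.26-fold at 20 months and 2.77-fold at 6 months. The range at 20 months rested on 1 mouse, replicate 6 at -1.10, with the next lowest, replicate 5, at -0.15. Npas2 (chr1:39418941-39419000), the alternative partner of Arntl, lay between -3.31 and -1.97 with a median of -2.40 at 20 months, against -2.83 to -1.61 with a median of -2.15 at 6 months (difference -0.35 ± 0.26, adjusted p = 0.761). Clock (chr5:76641377-76641436), the usual partner and a histone acetyltransferase, lay between 0.96 and 1.24 at 20 months, against 0.86 to 1.44 at 6 months, with medians of 1.0 and 1.17 (difference -0.09 ± 0.10, adjusted p = 0.836).

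Per2 (chr1:93313046-93313105), a period repressor, had the largest difference of the 9 genes. It had a lowest, median and highest value of -1.43, -0.85 and -0.45 at 20 months, against -1.99, -1.33 and -0.74 at 6 months. Its mean was -0.91 ± 0.48 at 20 months and -1.35 ± 0.50 at 6 months, a difference of 0.44 ± 0.25, or 1.35-fold (adjusted p = 0.691, 95% interval of the fold 0.929 to 1.97). The 3 highest Per2 values of all 12 arrays were those of 20 months replicates 4, 5 and 6. Per1 (chr11:68923364-68923423), the period gene that also answers acutely to hormones and light, ran from 2.62 to 4.53 with a median of 3.62 at 20 months, against 2.57 to 4.26 with a median of 3.58 at 6 months (difference 0.16 ± 0.34, adjusted p = 0.920). Per3 (chr4:150379256-150379315), the least essential of the period genes, ran from -2.76 to -1.92 at 20 months, against -2.90 to -1.79 at 6 months, with a median of -2.24 at both ages (difference 0.11 ± 0.20, adjusted p = 0.910).

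Nr1d1 (chr11:98630526-98631028), the REV-ERB alpha repressor of Arntl, had the smallest p of the 9 genes. Its lowest, median and highest values were 2.29, 2.69 and 3.03 at 20 months, against 1.82, 2.33 and 2.93 at 6 months. Its mean was 2.66 ± 0.25 at 20 months and 2.36 ± 0.36 at 6 months, a difference of 0.31 ± 0.17, or 1.24-fold (adjusted p = 0.680 in limma's fit, 95% interval of the fold 0.965 to 1.58). Leaving out 6 months replicate 1 gave a difference of 0.20, and leaving out the 3 arrays with raised heart or T and NK cell markers gave 0.13. Nr1d2 (chr14:19037253-19037312), its paralog, lay between 1.05 and 1.72 at 20 months, against 0.91 to 1.49 at 6 months, with medians of 1.40 and 1.36 (difference 0.10 ± 0.13, adjusted p = 0.869).

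Cry2, the cryptochrome repressor that was measured, has 2 probes that carry different RefSeq transcript accessions. The brighter probe (chr2:92243807-92243866, NM_009963) lay between 3.33 and 3.73 at 20 months, against 3.06 to 3.62 at 6 months (difference 0.12 ± 0.11, adjusted p = 0.793). The dimmer probe (chr2:92251417-92251476, NM_001113333) lay between 0.53 and 1.32 at 20 months, against 0.51 to 0.83 at 6 months (difference 0.28 ± 0.13, adjusted p = 0.652 over all probes). Across the 12 arrays the 2 probes did not follow each other (Pearson r = -0.032, p = 0.922, Spearman rho = -0.154, p = 0.637, permutation tests), so that Cry2 values hold for the probe named.

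**Figure D1:**
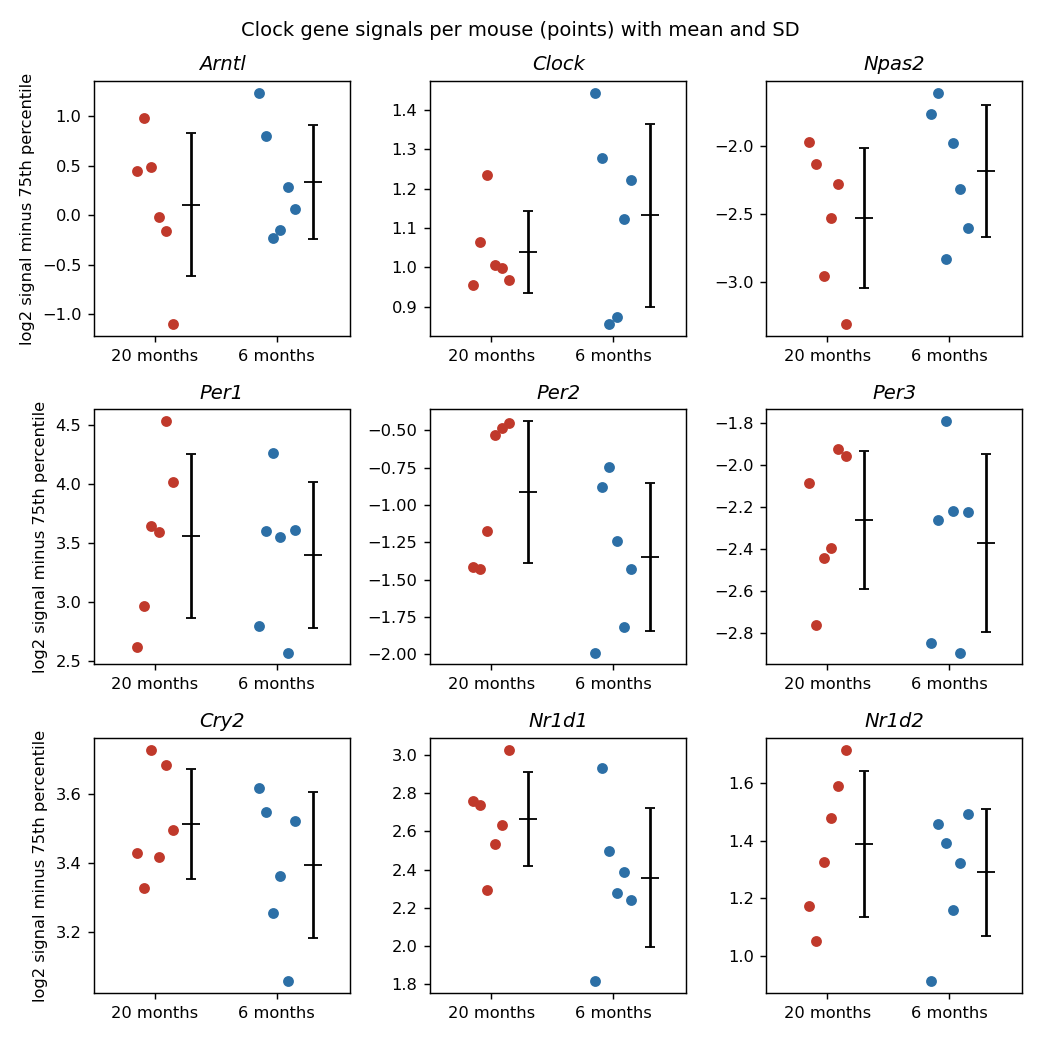
Log2 signal minus the array's 75th percentile for the 9 clock genes above background, 1 panel per gene, with 20 months at the left and 6 months at the right. Each point is 1 mouse and the bars give mean and SD (n = 6 each). The ages overlap in every panel, and Arntl and Per1 spread over up to 4.26-fold and 3.77-fold among mice aged 20 months. For Arntl 1 low mouse, replicate 6 at -1.10, sets that range, with the next lowest at -0.15.

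The members differed from each other in how far single mice of 1 age lay apart. The SD within an age was 0.66 for Per1 and 0.65 for Arntl, at the 97.5th and 97.4th percentile of all genes tested, and 0.50 for Npas2 and 0.49 for Per2, at the 93.9th and 93.3rd. It was 0.38 for Per3, 0.31 for Nr1d1 and 0.24 for Nr1d2 (percentiles 85.8, 76.4 and 60.5). Cry2 (brighter probe) and Clock lay a little below the middle of all genes, with SDs of 0.19 and 0.18 (percentiles 43.9 and 41.2). The dimmer Cry2 probe had an SD of 0.28 at 20 months and 0.14 at 6 months. The median SD over all genes was 0.20. Clock is known as the member whose messenger cycles little in mouse tissues. The signals of Npas2 and Per3 were dim, and the part of array noise in their spread was not tested.

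The second question was whether members rise and fall together from mouse to mouse. Over the 12 arrays all 15 pairs of an activator (Arntl, Clock, Npas2) with a Per or Nr1d gene had a negative Pearson r, with a median of -0.487 and a range of -0.769 to -0.173. All 10 pairs among Per1, Per2, Per3, Nr1d1 and Nr1d2 had a positive r (median 0.671, range 0.266 to 0.836), and so did the 3 pairs among the activators (0.328 to 0.715). Pairs with the brighter Cry2 probe were mixed, 6 positive and 2 negative, between -0.0911 and 0.435. Of the 36 pairs 15 had an unadjusted p under 0.05 and 5 passed after adjustment over the 36 (two-sided permutation tests with 100000 resamples, Benjamini-Hochberg). These 5 had an r of at least 0.749 in size, which is 13.9% of the member pairs, while 3.4% of all pairs of genes tested reached that size. The 36 pairs share 9 genes and 12 arrays and are not independent of each other. No share over all pairs of genes was taken for the signs, the unadjusted p or the other settings below. Whether those counts are particular to the members was not tested. With the dimmer Cry2 probe, tried after seeing the data, the 3 pairs with an activator were negative (-0.541 to -0.133) and the 5 with a Per or Nr1d gene positive (0.143 to 0.731). Of these 8 pairs 1 passed, that with Nr1d1 (r = 0.731, p = 0.00657, adjusted p = 0.0394, and rho = 0.706, p = 0.0126, permutation tests), and its r was 0.522 (p = 0.123, permutation test) without the 2 arrays farthest from the median of Cry2. No gene's values fell into separate clusters, the widest inner gap being 0.297 of the range, for Per1.

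**Figure D2:**
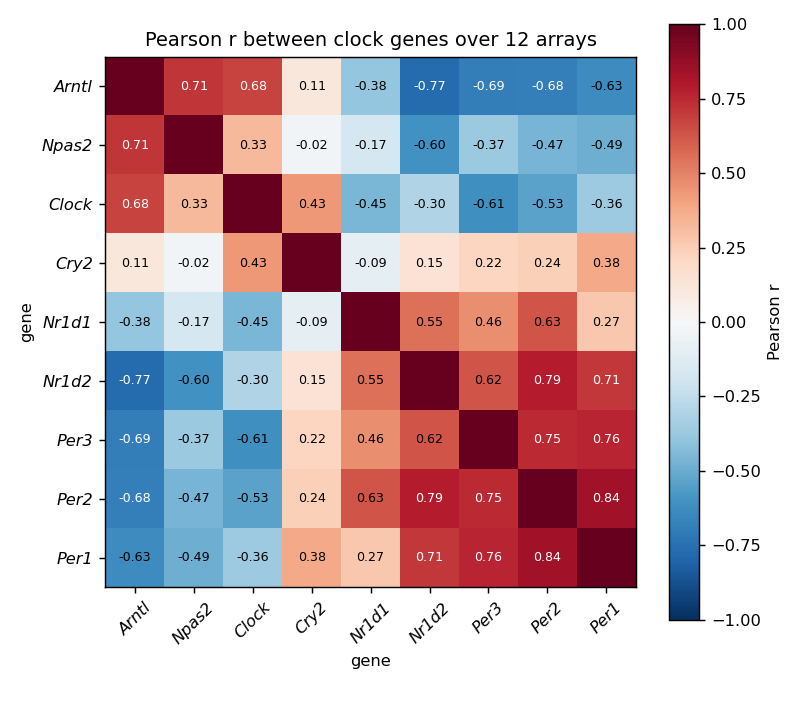
Pearson r between each pair of the 9 clock genes over the 12 arrays, with red for positive and blue for negative values. The 3 activators at the top left and the 5 Per and Nr1d genes at the bottom right form 2 positive blocks with negative values between them, from -0.77 to -0.17, while the row of Cry2 stays between -0.09 and 0.43.

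The strongest pair was Per1 with Per2 (r = 0.836, p = 0.00094, adjusted p = 0.0338, and rho = 0.755, p = 0.00651, permutation tests). Per2 with Nr1d2 had r = 0.788 (adjusted p = 0.0431, rho = 0.727, p = 0.0101), Per1 with Per3 had r = 0.760 (adjusted p = 0.0432, rho = 0.685, p = 0.0171) and Per2 with Per3 had r = 0.749 (adjusted p = 0.0432, rho = 0.685, p = 0.0173). The 1 negative pair past the threshold was Arntl with Nr1d2 (r = -0.769, p = 0.00359, adjusted p = 0.0431, rho = -0.671, p = 0.0206, permutation tests). No Spearman rho passed after adjustment, the smallest adjusted p being 0.0608.

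Without the 2 arrays farthest from the median of the first gene, r was 0.820 for Per1 with Per2, 0.609 for Per2 with Nr1d2, 0.943 for Per1 with Per3, 0.630 for Per2 with Per3 and -0.470 for Arntl with Nr1d2 (10 arrays each, unadjusted p = 0.0034, 0.0639, 0.00025, 0.0511 and 0.172 in permutation tests). The 2 arrays left out for Arntl were 20 months replicate 6 and 6 months replicate 1, the ends of its own range. Leaving out the ends of a range tends to lower r by itself, so that this drop cannot show what the relation rested on. Without 20 months replicate 6 alone r was -0.667, and without 6 months replicate 1 alone -0.676 (adjusted p = 0.116 and 0.139, permutation tests). With arrays scaled to their median in place of the 75th percentile, Arntl with Nr1d2 did not pass (r = -0.179, adjusted p = 0.668, permutation test). The 5 calls sat close to the threshold. None was left without 20 months replicate 2, 5 or 6 or 6 months replicate 1 or 3, 2 were left without 6 months replicate 6, and 8 pairs passed without 6 months replicate 2. Of the 33 alternatives 29 could move the 28 values among activators and Per and Nr1d genes, since 4 concern only the filter or Cry2. All 28 signs were kept in 20 of the 29, and at least 24 of the 28 in each of the others.

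Arntl, taken as the hand of the clock, had an r of 0.715 with Npas2 (adjusted p = 0.0518) and 0.677 with Clock (adjusted p = 0.0561), neither past the threshold in the permutation test. With Per3 it had -0.692, with Per2 -0.682 and with Per1 -0.629 (adjusted p = 0.0538, 0.0538 and 0.0826). With Nr1d1, the repressor thought of as its direct opponent, it had -0.384 (p = 0.216, adjusted p = 0.332, rho = -0.196, p = 0.542, permutation tests). Centred on slide the value was -0.563, with the replicate number as a block -0.886, and with median scaling -0.022. Without the 2 arrays farthest from the median of Arntl the value was 0.547. Leaving out these ends of the Arntl range cannot show what the relation rested on. The pair passed under none of 33 alternatives. With the Cry2 probe Arntl had 0.110, and with the other Cry2 probe -0.541, neither past the threshold.

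The 2 mice at the ends of the Arntl order are given as values, chosen by Arntl in these same arrays. Replicate 6 at 20 months had the lowest Arntl (-1.10) and the lowest Npas2 (-3.31) of all 12 arrays, and the highest Nr1d1 (3.03), Nr1d2 (1.72) and Per2 (-0.45). Replicate 1 at 6 months had the highest Arntl (1.24) and Clock (1.44) and the lowest Nr1d1 (1.82), Nr1d2 (0.91) and Per2 (-1.99). Between these 2 mice Arntl differed 5.07-fold in 1 direction and Per2 2.91-fold in the other. The second of them is an array with high heart muscle markers (2.07 above their mean), and the first was not far from that mean (0.36 above). At the high end, the next mice followed only in part. Replicate 2 at 20 months stood at rank 2 from the highest for Arntl, 4 for Nr1d1, 11 for Nr1d2 and 9 for Per2. Replicate 2 at 6 months stood at rank 3 for Arntl, 2 for Nr1d1, 5 for Nr1d2 and 5 for Per2. At the low end, replicate 3 at 6 months stood at rank 11 for Arntl, 7 for Nr1d1, 6 for Nr1d2 and 4 for Per2. Next to it, replicate 5 at 20 months stood at rank 10 for Arntl, 5 for Nr1d1, 2 for Nr1d2 and 2 for Per2.

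**Figure D3:**
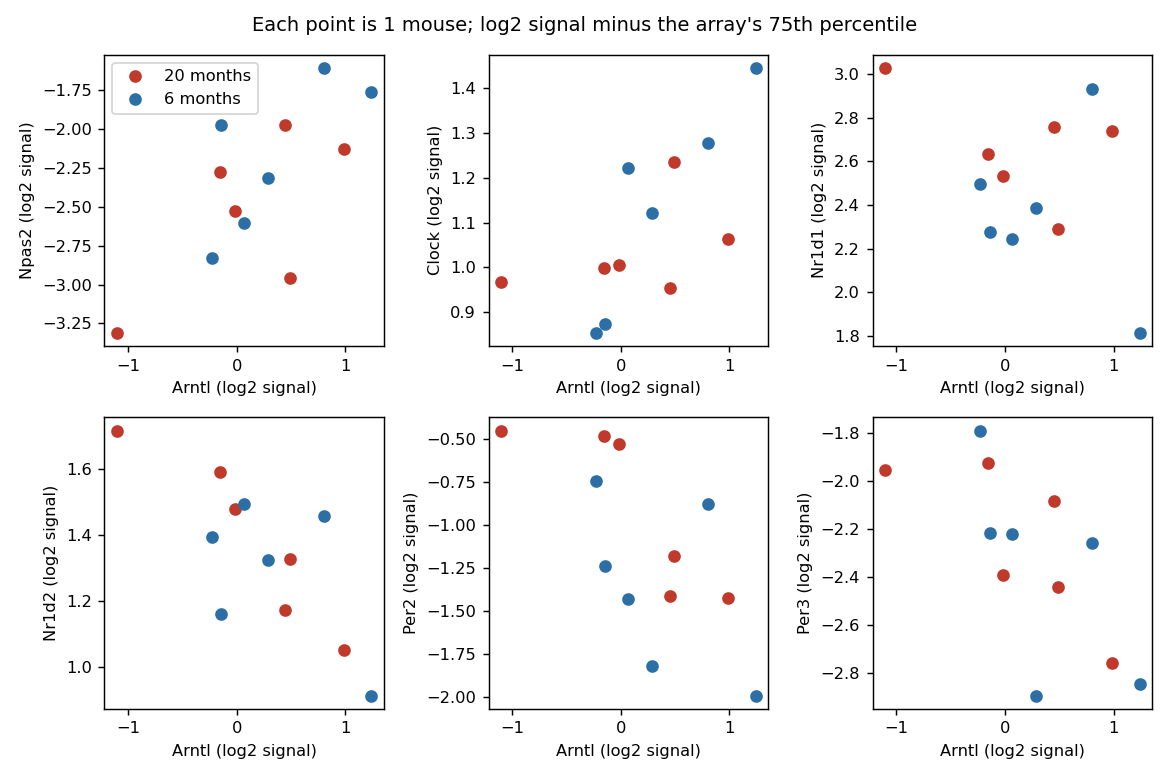
Log2 signal of Npas2, Clock, Nr1d1, Nr1d2, Per2 and Per3 against that of Arntl, each point 1 mouse, with 20 months in red and 6 months in blue. The upper left and middle panels rise with Arntl (r = 0.715 and 0.677), the others fall (r from -0.384 for Nr1d1 to -0.769 for Nr1d2), and points of both ages are mixed in each panel.

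Within each age alone 6 arrays remain, and the exact permutation test over 36 pairs left none past the threshold in either age. The smallest p that 6 arrays allow is 0.00139, which over 36 pairs adjusts to 0.05 for a single pair, so that the threshold was nearly out of reach and the absence of calls says nothing about either age. Arntl with Nr1d2 had r = -0.939 (exact p = 0.00556) at 20 months, against -0.502 (exact p = 0.306) at 6 months. Per2 with Nr1d2 had 0.948 (exact p = 0.00139) at 20 months, against 0.619 (exact p = 0.193) at 6 months. Per1 with Per3 had 0.508 (exact p = 0.312) at 20 months, against 0.995 (exact p = 0.00556) at 6 months. Whether these values differ between the ages was not tested. Among the 15 activator and repressor pairs 14 were negative at 20 months and 14 at 6 months.

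Each slide holds 4 arrays, too few for a correlation of its own, so the members were centred on their slide mean. Then 8 pairs passed, and the r of Arntl with Per3 was -0.920 (adjusted p = 0.00612, permutation test), with Per1 -0.790 (adjusted p = 0.0418) and with Nr1d2 -0.776 (adjusted p = 0.0418), while Per1 with Per2 had 0.910 (adjusted p = 0.00612). After centring on age 1 pair passed, Per1 with Per2 (r = 0.874, adjusted p = 0.0202), and Arntl with Nr1d2 had -0.759 (adjusted p = 0.0595).

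**Figure D4:**
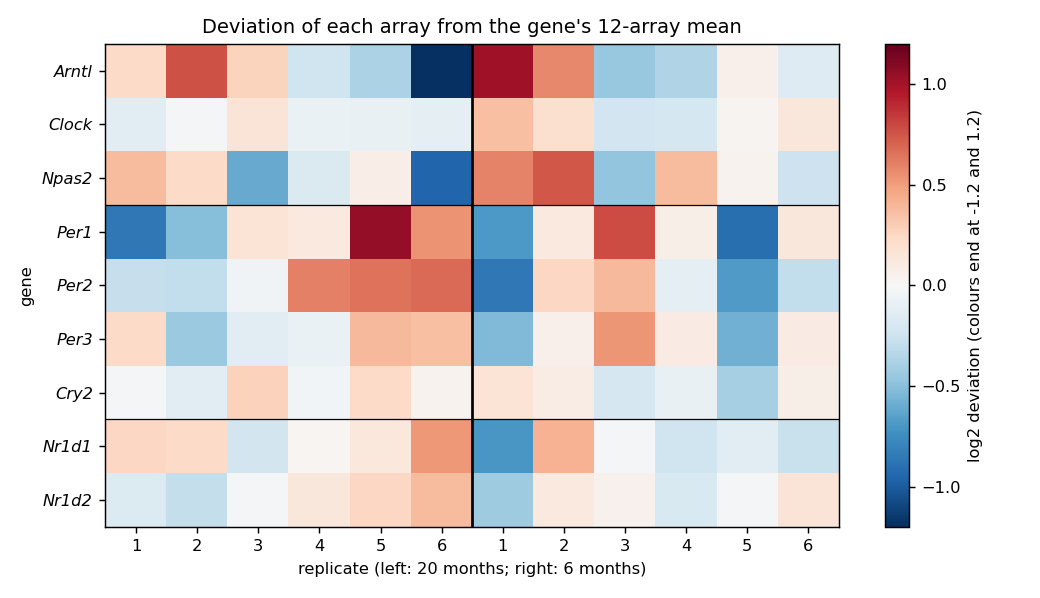
Deviation of each array from the gene's mean over 12 arrays (log2), with genes in rows (activators, Per and Cry, Nr1d) and mice in columns, 20 months at the left and 6 months at the right. Columns differ within an age, for example 20 months replicate 6, where Arntl and Npas2 are low and the Per and Nr1d genes high, and 6 months replicate 1, which runs the other way.

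The members' age differences were also taken slide by slide. On slides 2 and 3 Arntl was lower at 20 months than at 6 months, by 0.63 and 0.48 on the log2 scale, and Per2 was higher (1.04 and 0.88), as was Per1 (0.75 and 0.88). On slide 1 the differences ran the other way, with 0.43 for Arntl, -0.61 for Per2 and -1.14 for Per1. Npas2, Per3, Nr1d2 and Cry2 also had the opposite sign on slide 1 (0.17, -0.40, -0.31 and -0.02), whereas Clock (-0.06, -0.01 and -0.22 on slides 1, 2 and 3) and Nr1d1 (0.03, 0.45 and 0.43) did not. A test of the age difference between slides, chosen after these values were seen, called 0 of the 9 members (limma interaction, adjusted p = 1 for each), beside 0.00593% of all genes. Before adjustment 2 of the 9, Per2 and Per1, had a p under 0.05, as did 2.98% of all genes. With 2 arrays of each age per slide, the members' changes by slide are therefore given as values.

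**Figure D5:**
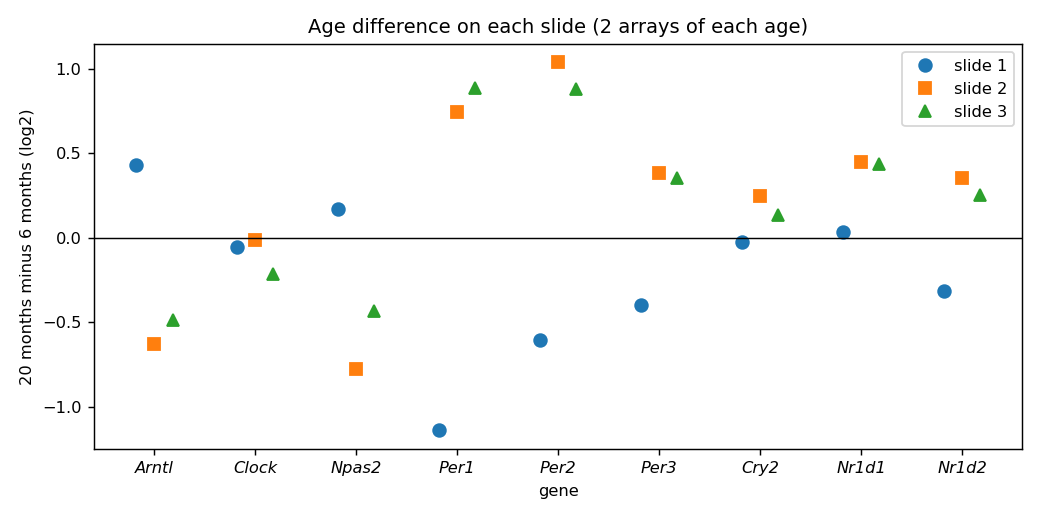
Difference of the mean log2 signal, 20 months minus 6 months, for each clock gene on each of the 3 slides, with 2 arrays of each age behind a point and no error shown. Per1, Per2 and Arntl have opposite signs on slide 1 and on slides 2 and 3 (Per2 -0.61 against 1.04 and 0.88).

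Markers of other cells were set beside Arntl, Per2 and Nr1d2, with 12 lists and 36 relations. None passed after adjustment (smallest adjusted p = 0.585, permutation tests). Those with an unadjusted p under 0.05 were Nr1d2 with the 2 B cell markers (r = -0.584, p = 0.0462, rho = -0.469, p = 0.127, permutation tests), and 2 of Per2, with the 6 endothelial markers (r = -0.595, p = 0.043, rho = -0.671, p = 0.0198), whose mean ran from 1.92 to 2.32 at 20 months and from 1.95 to 2.40 at 6 months, and with the 6 heart muscle markers (r = -0.579, p = 0.0487, rho = -0.497, p = 0.105), from -0.96 to 3.45 at 20 months and from -1.27 to 2.52 at 6 months. The macrophage and mesothelial means had an r between -0.0907 and 0.0864 with the 3 genes (adjusted p = 0.999 for each). The 6 brown fat markers, from 3.96 to 5.20 at 20 months and from 4.08 to 5.52 at 6 months, had r = -0.068 with Arntl (p = 0.837, rho = -0.14, p = 0.669). With the heart muscle mean as a covariate r was 0.743 for Per1 with Per2 and -0.766 for Arntl with Nr1d2 (adjusted p = 0.0696 for both), and no pair passed. With the endothelial mean no pair passed (0.787 and -0.715 for the same pairs), and with the brown fat mean 6 did.

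Other genes of the pathway did not pass for age either. Of the 11 output and feedback factors all 11 were tested and 0 passed in either direction, nor did any have an unadjusted p under 0.05 (8 positive and 3 negative changes, median 0.03). Ciart, a repressor of the Arntl and Clock pair, had a lowest, median and highest value of -4.92, -2.98 and -1.05 at 20 months, against -5.71, -4.37 and -2.33 at 6 months. That is a difference of 1.36 ± 0.69 (limma, adjusted p = 0.675), with an SD of 1.36 at 20 months and 1.38 at 6 months. Its probe was detected in 5 of the 20-month mice and in 2 of the 6-month mice, so that many of these values lie near background. Rorb, of the ROR family that activates Arntl, differed by 0.32 ± 0.17 (adjusted p = 0.680), and Dbp, a D-box activator driven by the E-box loop, by 0.41 ± 0.23 (adjusted p = 0.691), with values of 4.45 to 5.92 at 20 months, against 4.40 to 5.34 at 6 months.

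Of the 18 genes that modify or escort clock proteins 17 were tested and 0 passed in either direction, Fbxl21 not being above background. An unadjusted p under 0.05 (limma) was found for 1 of the 17, beside 7.99% of all genes. Changes were positive for 8 and negative for 9 of them, with a median of -0.02. Those with the smallest p were Sfpq, a partner of the PER complex (0.25 ± 0.10, limma, adjusted p = 0.528), Gsk3b, a kinase that phosphorylates clock proteins (-0.12 ± 0.07, adjusted p = 0.687), and Fbxw11, a ubiquitin ligase subunit that targets PER proteins (0.19 ± 0.13, adjusted p = 0.756).

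The genes whose pattern over the 12 arrays was most like that of Arntl, by Pearson r after centring on age among 13328 genes with a symbol, were not members. They were Serpinb9 (0.949), Tspyl3 (0.916), Mboat1 (0.905), Map10 (0.894), Trim34a, Leo1 and Akap5 (0.887 each) and Gdpd5 (0.879). Npas2 stood at position 129, Clock at 220 and Cry2 at 5221 from the top. At the other end were Apba2 (-0.824), Pramel25 (-0.820), Cd300e (-0.816), Eqtn (-0.812), Esrp1 (-0.802), Rbmy (-0.799), Gtf3c4 (-0.793) and Ubox5 (-0.784). Nr1d2 stood at position 22 from that end, Per3 at 77, Per2 at 82, Per1 at 167 and Nr1d1 at 1234. Without centring on age r was -0.504 for Pramel25 and -0.825 to -0.765 for the others named at that end. Rbmy was detected in 4 mice of each age, and Eqtn in 4 at 20 months and 5 at 6 months.

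For Nr1d1 the most alike were Zdhhc1 (0.874), Aak1 (0.852), Slc35g3 and Mettl2 (0.851 each), Rnf166 (0.849), Adamts10 (0.848), Hira (0.844) and Poc1b (0.829). Without centring on age r was 0.295 for Slc35g3, 0.549 for Poc1b and 0.723 to 0.875 for the others most alike. Among the least alike were Zfp708 (-0.917), Gabrr2 (-0.848), Cyp2e1 (-0.845), Cdkn2aip (-0.843), Pxmp2 (-0.840), Slc13a4 (-0.838) and Rbl1 (-0.837). Per2 stood at position 596 from the top, Nr1d2 at 663, Per3 at 972 and Per1 at 2390. Npas2 stood at 4899, Cry2 at 9414, Arntl at 10089 and Clock at 10644, of 13328 genes. With 12 arrays many genes reach such values, and the order is a description of these arrays.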

How the data were processed

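The 12 Cy3 arrays were read with Agilent Feature Extraction 10.7.1.1, per the file headers (protocol GE1_107_Sep09, design 028005, probe positions on mm9). The deposited scanner files give an intensity, the processed green signal, with background subtracted and no scaling between arrays. The deposited value table holds log2 values centred on each probe's median, with its steps not stated, and served as an alternative (r of 0.898 to 0.985 with the centred scanner values, column medians from -0.0345 to 0.012).

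Signals were taken to log2, outlier spots left out (51 of 55681 probes lost), spots of a probe averaged, and each array's 75th percentile subtracted. Probes well above background on at least 6 arrays were kept (27583), and the brightest per gene used (16853 genes). Names came from RefSeq accessions (26395 probes), symbols of GRCm38.p6 (4586) or the array (4770). Ages were compared with limma 3.58.1 in R 4.3.3 (age as the only term, Benjamini-Hochberg). Correlations used Pearson r and Spearman rho with 100000 permutations, exact within 6 arrays, and Freedman-Lane permutations where a term was removed. The procedure was tested on simulated data. The members and lists were chosen with earlier results of these data known. Genes named are all members, the 3 smallest p of each list, and the 8 most and least alike to Arntl and Nr1d1, of which 1 is not reported here. The number of arrays limits the precision of every value. With 1 array per mouse, the spread behind the p-values holds differences between mice together with those of slide and array.

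Alternatives covered background, scaling, filter, probe choice, slide, the replicate number as a block, and each array left out. Those without 3 arrays, with marker or detection covariates and with the other Cry2 probe were chosen after seeing the data, as was the test of age by slide.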

Additional observations from a re-analysis of the deposited data

Results flagged for a closer look

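Of the 22 groups of 6 arrays formed by the 11 probes and the 2 ages, 1 held an array far from the others. The Cry1 probe stood at -3.88 in 20 months replicate 3, and the nearest other array of that age at -5.48, a gap of 0.927 of the group's range. The probe was not well above background on that array either. Chance alone marks about 1 in 20 such groups.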

How the results depend on the processing

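No clock gene passed for age under any of 26 alternatives. The 53 genes called over the whole array became 33 with median scaling, 23 without a filter on dim probes, 122 with array weights, 30 without the 3 arrays with raised heart or T and NK cell markers, and 21 to 59 with 1 array left out. Small changes turned their sign: Arntl ran from -0.40 to 0.02 and Per1 from -0.03 to 0.35 with 1 array left out (Arntl 0.0153 without 20 months replicate 6, Per1 -0.00213 and -0.0308 without 6 months replicate 5 and 20 months replicate 5), and Per3 was -0.00423 without the 3 arrays. Npas2 ran from -0.48 to -0.19, Nr1d1 from 0.20 to 0.42 and Nr1d2 from 0.02 to 0.17 with 1 array left out, and Nr1d1 and Nr1d2 were 0.13 and 0.02 without the 3 arrays.

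The 5 correlated pairs became 0 with normexp, Spearman rho, and the heart muscle or endothelial mean as a covariate. They were 0 at 20 months alone and 0 at 6 months alone as well, where 6 arrays can hardly pass the threshold, so that these 2 counts are no loss. They became 3 with median scaling, 1 without a filter (where Cry1 adds pairs), 1 after centring on age, 8 on slide and 2 on both, 1 without the 2 arrays farthest from the median, 1 without the 3 arrays, 10 with the other Cry2 probe, and 0 to 8 with 1 array left out. The cause was not tested. Arntl with Nr1d1 turned to 0.547 without the 2 farthest arrays and ran from -0.566 to -0.0834 with 1 array left out. That pair was at -0.563 after centring on slide, -0.551 on age and slide, -0.0222 with median scaling and -0.886 with the replicate block. Arntl with Cry2 turned to -0.00931 with quantile normalization, -0.00827 with the value table, -0.377 with the mean over probes, -0.195 and -0.101 after centring on slide and on slide and age, -0.214 at 20 months alone, -0.0513 without the 3 arrays, -0.541 with the other probe, and -0.0332 to 0.211 with 1 array left out. With median scaling Arntl with Nr1d2 was -0.179.

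The ages share replicate numbers only as labels: deviations of same-numbered arrays correlated at -0.36 to 0.323, not above 0.1 in every pair. With the replicate block 6 genes and 0 clock genes were called for age and 0 pairs passed. Dim signals limit Npas2 and Per3.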
